A study of Mus musculus with 103 samples.

Results

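The keratin gene family of the mouse was described here over sorted cells, tumours and metastases of many organs. Every gene measured on the array whose symbol is Krt followed by a number was taken as a member, which gave 41 keratins of 17097 measured genes. Expression was measured on Affymetrix mouse arrays, 1 per sample, and every value below is a deposited log2 expression level or a difference of such levels. The study, titled for multi-organ mapping of cancer risk, traced cells that express Prom1 over the long term and targeted them with oncogenes in several organs.

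The dissected primary tumours were 14 hepatocellular carcinoma/cholangiocarcinoma samples (HCC/CC), 8 prostatic adenocarcinomas, 7 gastric adenomas, 4 gastric adenocarcinomas, 5 large and 3 small intestinal adenomas, 4 perineal and 3 perioral squamous cell carcinomas, 1 periorbital squamous cell carcinoma, 3 uterine carcinomas, 2 bronchopulmonary adenocarcinomas and 2 hepatoblastomas. A further 7 dissected samples were metastases, 1 of each kind. The 40 samples of sorted cells were 9 of liver treated with DDC (an agent known for injuring hepatocytes and bile ducts when fed to mice), 3 of neonatal liver, 5 of untreated liver, 4 of kidney, 4 of lung, 4 of uterus, 3 of prostate, 3 of salivary gland, 3 of small intestine and 2 of stomach. All sorted cells had been bound by magnetic beads against Prominin1, the product of Prom1, after red cells were lysed and dead cells removed. The labels give no strain, genotype, oncogene, Cre driver, agent dose or animal, and no age other than the neonatal liver, so it is not known here which alleles the groups share. Since nothing in the labels ties each sample to an animal of its own, the p-values below measure only the spread between these samples, which may be technical.

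Keratins are the intermediate filament proteins of epithelial cells. They assemble as obligate pairs of a type I (acidic) and a type II (basic or neutral) chain, and the pair in use marks the kind of epithelium and its stage of differentiation. Single-layered epithelia of glands, gut and liver make Krt8 with Krt18, the basal layer of stratified epithelia makes Krt5 with Krt14, the upper epidermis switches to Krt1 with Krt10, and hair follicles use separate sets for their inner root sheath and hair shaft. The 2 types lie in 2 clusters in the mouse genome, and 20 of the 41 members measured here lie on chromosome 11 and 21 on chromosome 15. By their known roles, 6 members were simple epithelial keratins, 3 basal, 4 suprabasal epidermal, 3 of internal stratified mucosa, 3 of wounded and activated epithelium, 6 of other epithelia, 5 of the inner root sheath and 10 of hair or nail, while Krt88 was not classed. Another 14 keratin entries of RefSeq, Krt17 among them, had no probe set of their own in the table used and were not analysed here. A gene was represented by its probe set with the highest mean, and 34 members had only 1. Among the 7 members with several, the other probe sets followed the chosen one over the arrays with a correlation of at least 0.916, apart from Krt222 at 0.24. Krt6a and Krt6b are near-identical copies, as are some hair keratins, and their probe sets may share signal.

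Krt8 and Krt18 were the pair found across the internal organs, and their genes are neighbours on chromosome 15, Krt18 being the only type I keratin in the type II cluster. The 250 bases before their RefSeq transcription starts in GRCm38.p6 are printed because this pair separates internal from squamous tumours below. They lie at chr15:102004343-102004592 on the minus strand for Krt8 and chr15:102027966-102028215 on the plus strand for Krt18, and each line runs 5′ to 3′ towards the start. Capitals would mark the TATA box TATAAA, the GC box GGGCGG, the CCAAT box and the AP-1 site TGANTCA, searched on both strands, and neither window holds any of them.
Krt8: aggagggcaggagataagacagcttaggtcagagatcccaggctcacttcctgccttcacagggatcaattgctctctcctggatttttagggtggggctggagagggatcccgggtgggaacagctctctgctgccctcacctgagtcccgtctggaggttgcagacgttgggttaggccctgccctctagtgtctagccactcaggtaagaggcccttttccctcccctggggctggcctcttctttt
Krt18: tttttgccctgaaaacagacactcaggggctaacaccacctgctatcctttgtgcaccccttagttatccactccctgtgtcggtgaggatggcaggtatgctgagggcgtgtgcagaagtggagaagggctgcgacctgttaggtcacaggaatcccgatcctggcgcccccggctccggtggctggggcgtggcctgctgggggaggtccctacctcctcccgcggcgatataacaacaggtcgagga

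Of the 41 members, 26 had a promoter in the sequence table. These 26 genes had 27 promoter entries, and a gene was counted if any of its windows held the letters. The shares of all promoters were counted per entry, so the units differ slightly. TATAAA stood in 12 of the 26 genes (46.2%), against 12.4% of all 32851 promoter entries of the same length. GGGCGG stood in 2 (7.69%), against 32.7%. CCAAT stood in 9 (34.6%), against 33.8%, and TGANTCA in 1 (3.85%), against 6.75%. The 12 keratins with TATAAA were Krt10, Krt12, Krt20, Krt84, 5 inner root sheath keratins (Krt25, Krt26, Krt27, Krt71 and Krt73), and the hair keratins Krt31, Krt33b and Krt34. These matches describe letters in a window and are not sites or causes.

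Array medians lay between 3.82 and 4.24, and the closest 2 arrays had a correlation of 0.993, and none duplicated another. A level of 4.10, the 40th percentile of the levels of all genes over all arrays, was used as the floor of detection. A difference against a level under it has a size that depends on the array's background. The 3' minus 5' difference of the actin control probe sets, which grows with RNA degradation, averaged 0.87 in HCC/CC, 0.997 in DDC-treated liver cells and 0.80 in neonatal liver cells, against 1.45 in untreated liver cells, and was 1.72 in kidney cells. Its part in the results was not tested. The stratified epithelium markers other than keratins (Trp63, Dsc3, Pkp1, Sfn, Perp and Ly6d were measured) averaged 11.11 to 11.61 in perineal, 11.39 to 11.74 in perioral and 11.57 in the periorbital carcinomas, as their label says of the tumour type. In bulk samples such as these, fewer cells of a type and less RNA per cell cannot be told apart.

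The number of keratins above the floor differed widely between groups. In perioral carcinoma 34 of the 41 exceeded it by their group mean, in perineal carcinoma 29, in the periorbital tumour 24, in the abdomen and liver metastases of uterine carcinoma 24 and 23, in uterine carcinoma 22 and in stomach cells 22. Untreated liver cells had 8 and kidney cells 7, the lowest count of the 29 groups. Of the 15 inner root sheath and hair or nail keratins, 15 exceeded the floor in perioral and 8 in perineal carcinoma, and at most 4 did so in any other group. The map of group means by gene shows these blocks.

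**Figure D1:**
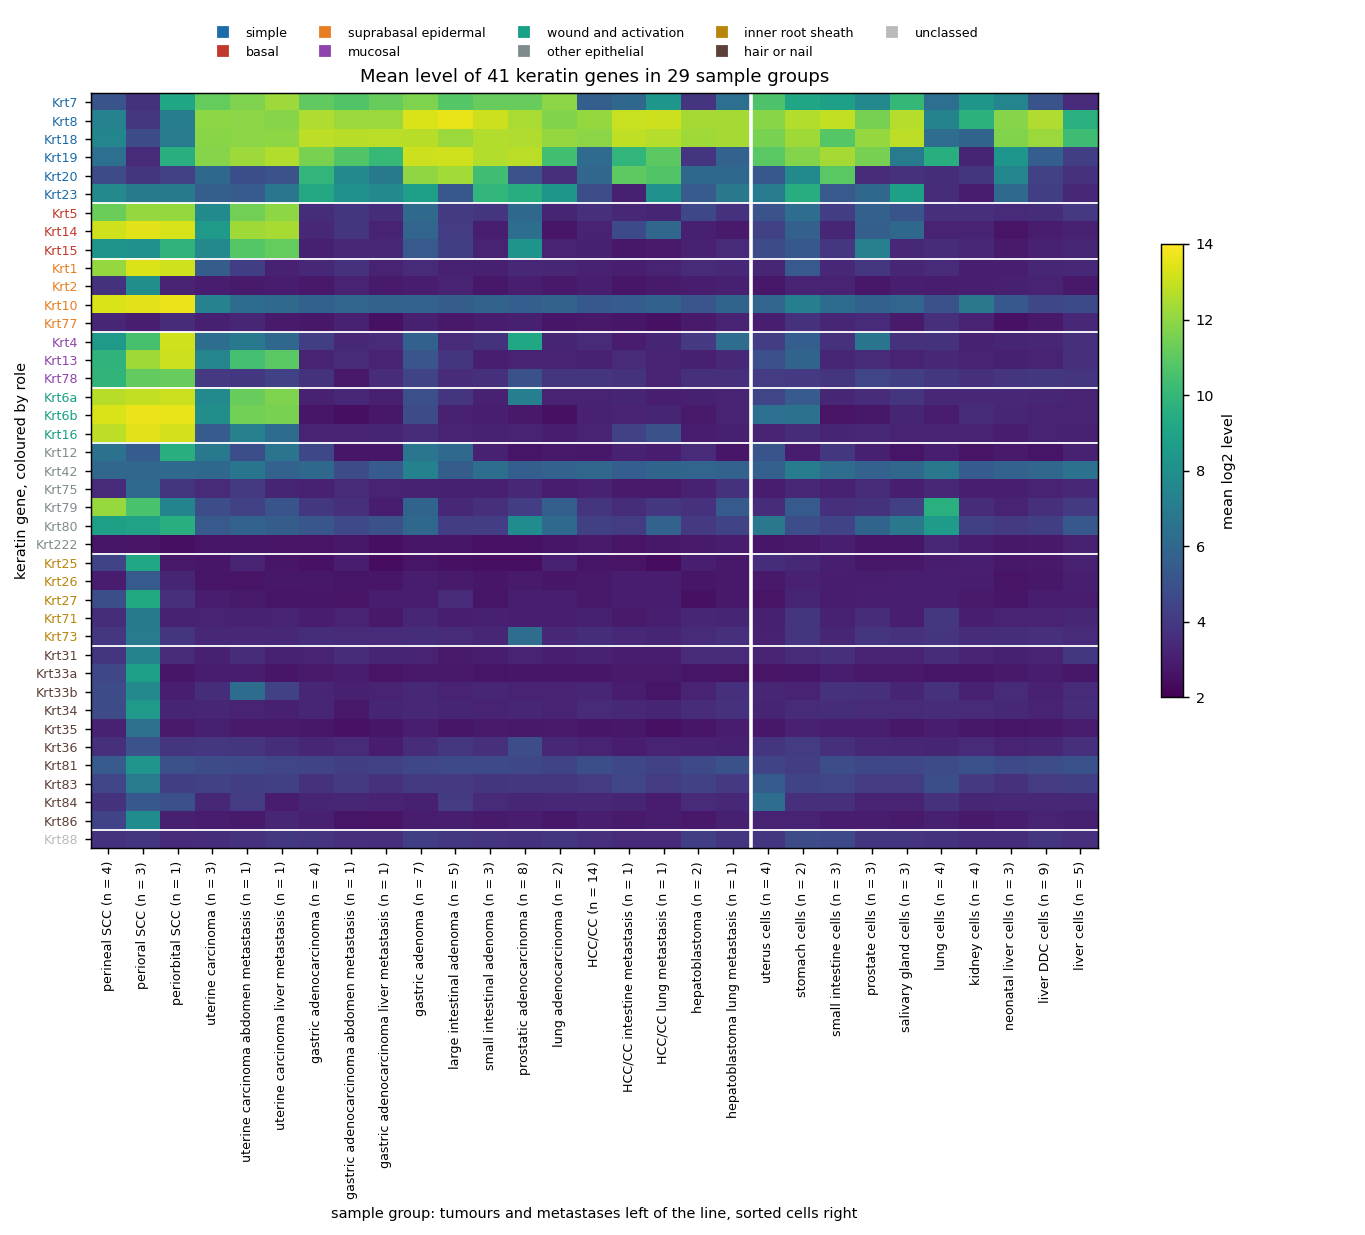
Mean log2 expression level of the 41 keratins (rows, ordered by known role) in the 29 groups (columns, tumours and metastases left of the line, sorted cells right of it). Krt8 and Krt18 run across nearly all columns, the basal, suprabasal and activation keratins are bright in the squamous carcinomas and partly in uterine tumours, and the inner root sheath and hair keratins are bright in the perioral carcinomas.

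Levels of filament partners were correlated over the 29 group means, as a description of points that share arrays and scaling. Rank correlations were lower than Pearson ones in every pair, and Pearson values weigh the groups with very high levels most. Pairs of non-partners were not compared, so the values are not shown to be particular to partners. Krt8 and Krt18 had a Pearson r of 0.923 and a Spearman rho of 0.768. Krt5 and Krt14 had 0.973 and 0.741. Krt1 and Krt10 had 0.980 and 0.453. Krt4 and Krt13, the pair of internal stratified mucosa, had 0.791 and 0.573. Krt16 had 0.892 and 0.535 with Krt6a, and 0.907 and 0.560 with Krt6b.

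Squamous cell carcinomas carried stratified keratins at very high levels and the simple pair at far lower levels when set against the 48 internal primary tumours. The comparison took the mean of the perineal and perioral groups minus the unweighted mean of 9 internal groups. Calls needed an adjusted p below 0.05 and a difference of 1 or more, with the limma fit and Benjamini-Hochberg adjustment over 12758 genes. Of 41 members, 39 were tested, since Krt77 and Krt222 were dim in every group. Called higher were 30 keratins and called lower 5, against 10.3% of all tested genes higher and 12.1% lower. The median keratin difference was 2.92 and that of all genes -0.10.

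Among basal keratins, Krt14, the type I partner of Krt5, was 13.17, 12.98, 13.27 and 13.03 in the perineal and 13.53, 13.44 and 13.37 in the perioral carcinomas, against a lowest, median and highest of 2.52, 3.31 and 10.20 in internal tumours. Every squamous sample stood above every internal one, the nearest of which was a uterine carcinoma, and the difference was 8.83 ± 0.56 (SE; adjusted p = 1e-18). Krt5, the type II partner, was 12.04, 10.76, 11.75 and 10.69 in perineal and 12.11, 12.19 and 12.06 in perioral tumours, against 2.98, 3.88 and 9.42 in internal tumours. The groups again did not overlap, with a difference of 6.97 ± 0.43 (adjusted p = 5.3e-19). Krt15, found in basal cells and the hair follicle bulge, lay between 7.61 and 8.86 in both squamous groups, with a difference of 3.63 ± 0.48, and its range overlapped that of internal tumours, which reached 9.92 in a uterine carcinoma.

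The suprabasal epidermal pair was as clear. Krt10 was 13.27, 13.24, 13.74 and 13.03 in perineal and 13.26, 13.45 and 13.68 in perioral tumours, against a lowest, median and highest of 4.53, 5.66 and 9.56 in internal tumours. Krt1 was 13.44, 11.61, 13.06 and 10.30 in perineal and 13.53, 13.38 and 13.24 in perioral tumours, against 2.78, 3.25 and 9.07. Neither gene's groups overlapped, though Krt1 was lower in perineal tumours 2 and 4 than in the other squamous samples. The difference was 7.61 ± 0.23 for Krt10 (adjusted p = 1.9e-31) and 9.21 ± 0.32 for Krt1 (adjusted p = 1.9e-29).

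The keratins of wounded and activated epidermis showed the largest difference in the family. Krt6b was 13.31, 13.25, 13.46 and 13.31 in perineal and 13.76, 13.59 and 13.56 in perioral tumours, against 2.37, 2.97 and 11.43 as the lowest, median and highest of internal tumours. Its difference was 9.84 ± 0.48 (adjusted p = 2.8e-23). Krt16, the type I partner of Krt6, was 12.95, 12.51, 13.02 and 12.67 in perineal and 13.52, 13.49 and 13.35 in perioral tumours, against 2.75, 3.10 and 9.36. All squamous samples stood above all internal ones for both genes, and Krt16 differed by 9.71 ± 0.33 (adjusted p = 1.6e-29). Krt6a differed by 8.45 ± 0.49 (adjusted p = 3e-20).

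Keratins of internal stratified mucosa were high but uneven. Krt13, which marks mucosa such as the mouth lining, was 11.25, 9.37, 11.66 and 7.03 in perineal and 12.06, 12.83 and 12.04 in perioral tumours, against 2.84, 3.23 and 9.56 in internal tumours. Krt4, its type II partner, was 11.09, 8.17, 9.92 and 4.76 in perineal and 10.11, 12.51 and 8.86 in perioral tumours, against 2.91, 3.81 and 10.47. Perineal tumour 4 was the lowest squamous sample for both, and both ranges overlapped that of internal tumours. The differences were 7.18 ± 0.42 for Krt13 (adjusted p = 6.6e-20) and 4.66 ± 0.53 for Krt4. Of the other epithelial keratins, Krt79, known in the hair canal and sebaceous duct, differed by 7.03 ± 0.24, and Krt80, a filament protein linked to cell junctions, by 3.65 ± 0.23. All 5 inner root sheath keratins and 9 of 10 hair or nail keratins were also called higher. Each of these overlapped the internal tumours. The lowest squamous and highest internal level were 2.60 and 3.39 for Krt25, and 2.80 and 3.24 for Krt33a. For both roles the mean level, given below, was higher in every perioral than in every perineal tumour. Members tested only through the squamous groups could hardly be called lower. Krt26 and Krt84 lost their calls without perioral tumour 1, with differences of 0.81 and 0.83.

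The simple keratins ran the other way. Krt8 was 9.31, 9.55, 4.01 and 6.48 in perineal and 3.92, 3.70 and 4.05 in perioral tumours, against a lowest, median and highest of 10.92, 12.56 and 13.71 in internal tumours. Krt18 was 6.93, 8.59, 5.62 and 8.86 in perineal and 4.94, 4.75 and 4.53 in perioral tumours, against 10.80, 12.47 and 13.07. Every squamous sample lay below every internal one for this pair. All perioral tumours were below all perineal ones for Krt18, while for Krt8 perineal tumour 3 lay among the perioral values. Krt8 differed by -6.97 ± 0.32 (adjusted p = 3.3e-24) and Krt18 by -6.23 ± 0.23 (adjusted p = 7.1e-28).

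Krt19, a type I keratin of ducts and glands, was 8.90 and 8.95 in perineal tumours 1 and 2 but 3.69 and 4.04 in tumours 3 and 4, and 3.49, 3.79 and 3.21 in perioral tumours, against 3.10, 12.12 and 13.28 in internal tumours. The lowest internal value was that of an HCC/CC tumour, and the difference was -5.64 ± 0.64 (adjusted p = 2.5e-10). Krt7, its type II companion in ducts, differed by -5.40 ± 0.60 (adjusted p = 1.1e-10), and Krt20, a keratin of gut and urothelium, by -3.64 ± 0.73 (adjusted p = 4.1e-05). Krt23 did not pass, with a difference of -0.16 ± 0.60 (adjusted p = 0.83). The plot of the 39 tested members shows this division by role.

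**Figure D2:**
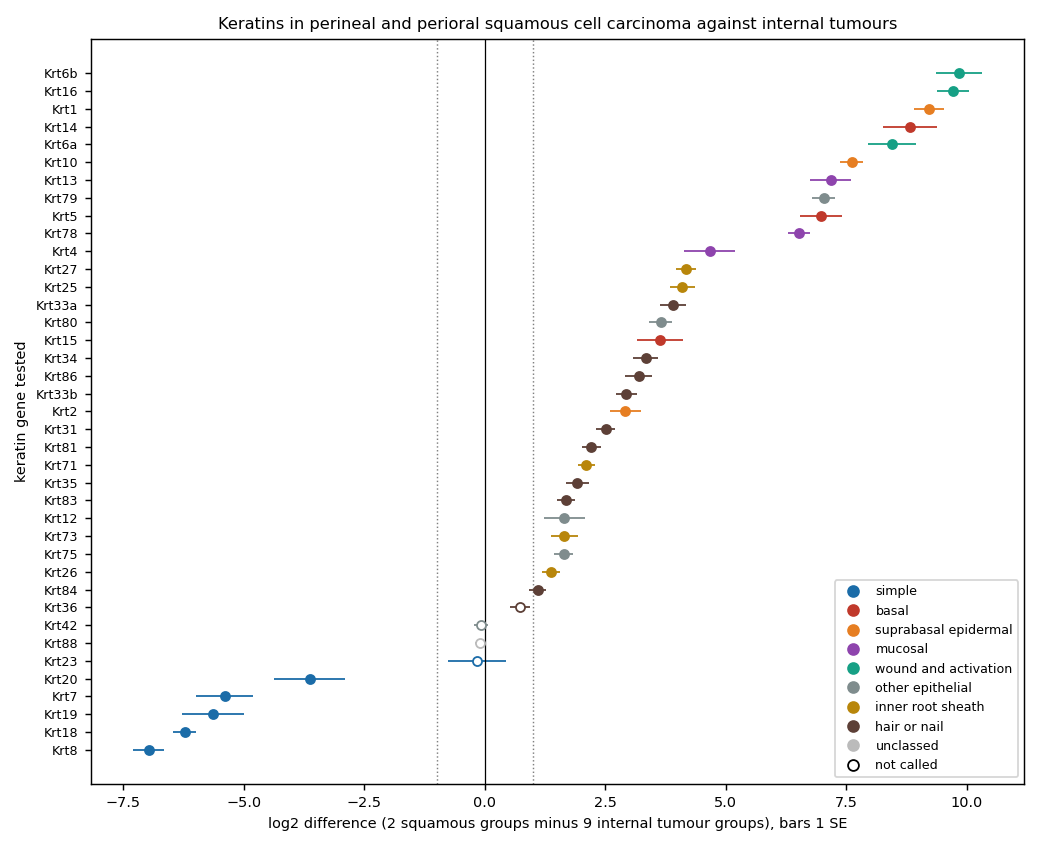
Difference in mean log2 level (perineal and perioral squamous cell carcinoma minus internal primary tumours, horizontal axis) for each of the 39 tested keratins, with bars of ± 1 SE. Rows are ordered by the difference and points coloured by known role. Krt6b is farthest to the right at 9.84 and Krt8 farthest to the left at -6.97, and 5 of the 6 simple keratins are the members called lower.

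The single periorbital tumour had 13.25 for Krt14, 12.11 for Krt5, 13.65 for Krt10, 13.14 for Krt1 and 13.60 for Krt6b, all within the range of the other squamous tumours. It also had 9.58 for Krt19, 9.05 for Krt7 and 7.08 for Krt8. Krt12, the type I keratin of the cornea, was 9.55 in it. Krt79 was 7.41, below each of the 7 other squamous tumours.

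Other genes of stratified epithelium, taken from lists chosen with earlier results of these data known, were read beside the keratins. Of 18 measured desmosome and hemidesmosome genes, which anchor keratin filaments to the membrane, 12 were called higher and 3 lower. Dsc3, a desmosomal cadherin of stratified epithelium, differed by 7.97 ± 0.17, and Col17a1, a hemidesmosomal collagen, by 6.20 ± 0.38. Pkp2, the plakophilin of simple epithelium, differed by -4.08 ± 0.21. Of 14 regulators of stratified epithelium, 11 were called higher and 1 lower, with Trp63, the master transcription factor of basal cells, at 6.60 ± 0.25 and Elf3, an epithelial ETS factor, at -2.88 ± 0.32. Of 34 tested keratin-associated proteins, which embed hair keratins in the hair shaft, 31 were called higher and 1 lower. All 4 skeletal muscle markers (Acta1, Ckm, Myh4 and Tnnt3) were called higher as well, their mean level running from 3.33 to 7.22 in perineal and 6.60 to 8.71 in perioral tumours. The part of muscle or of hair-bearing skin in the dissected pieces was not tested.

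Perineal and perioral carcinomas differed above all in hair follicle keratins. Of 38 tested members, 17 were called lower in perineal carcinoma and 3 higher, against 1.79% and 1.55% of all tested genes. By group means, 15 inner root sheath and hair or nail keratins exceeded the floor in perioral and 8 in perineal carcinoma. Members tested only through perioral tumours could hardly be called higher, so the direction of the count says little. These counts, and the SEs and p-values below, rest on the spread shared with all other primary tumours. Internal tumours had hair follicle keratins under the floor (medians of 2.58 for Krt25, 3.06 for Krt71 and 3.11 for Krt31). Their spread need not hold for squamous tumours. With these 7 tumours alone the SE was 0.78 for Krt27, 0.80 for Krt31 and 0.66 for Krt71, larger than those printed below. A fit of these 7 tumours alone called 1 member higher, Krt79, and 3 lower, Krt27, Krt31 and Krt71, and the other calls were lost, with an adjusted p of 0.052 for Krt25, 0.078 for Krt33a, 0.088 for Krt34, 0.14 for Krt86, 0.13 for Krt2, 0.15 for Krt8 and 0.074 for Krt18. The 17 comprised all 5 inner root sheath keratins, all 10 hair or nail keratins, Krt2 of the upper epidermis and Krt75 of the follicle's companion layer.

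Krt25, a type I keratin of the inner root sheath, was 6.53, 2.60, 5.92 and 2.71 in perineal tumours, against 10.47, 8.92 and 8.09 in perioral tumours. Its difference was -4.72 ± 0.47 (adjusted p = 1.5e-10). Krt71, a type II partner in the same sheath, was 4.65, 3.02, 3.82 and 2.83 in perineal tumours, against 8.21, 6.80 and 5.53 in perioral tumours, a difference of -3.27 ± 0.31 (adjusted p = 2.8e-11). All perioral tumours stood above all perineal ones for both, and perineal tumours 2 and 4 lay at the array's background. Krt27, another type I sheath keratin, was 5.67, 3.75, 6.34 and 3.71 in perineal tumours, against 10.61, 8.98 and 8.33 in perioral tumours, a difference of -4.44 ± 0.36 (adjusted p = 4.6e-13).

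The promoters of Krt25 and Krt71 are shown because these sheath genes lie on different chromosomes and differed together between the sites. The windows are chr11:99322952-99323201 and chr15:101743098-101743347 in GRCm38.p6, both on the minus strand, from RefSeq, and run 5′ to 3′. Capitals mark CCAAT, from base 114 to 110 before the start in Krt25 and 55 to 51 in Krt71, and TATAAA, from base 30 to 25 in Krt25 and 40 to 35 in Krt71.
Krt25: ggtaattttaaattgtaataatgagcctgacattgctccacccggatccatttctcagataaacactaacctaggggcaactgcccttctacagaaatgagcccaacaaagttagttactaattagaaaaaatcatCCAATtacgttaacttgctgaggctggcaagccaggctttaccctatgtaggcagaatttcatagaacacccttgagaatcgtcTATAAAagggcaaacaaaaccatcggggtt
Krt71: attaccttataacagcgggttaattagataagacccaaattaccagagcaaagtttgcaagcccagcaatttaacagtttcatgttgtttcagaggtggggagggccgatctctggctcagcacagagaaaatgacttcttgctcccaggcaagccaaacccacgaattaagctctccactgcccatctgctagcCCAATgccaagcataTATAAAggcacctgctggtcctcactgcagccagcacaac

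Hair shaft keratins were also higher in every perioral than in every perineal tumour for the 2 shown here. Krt33a, a type I hair keratin, was 6.59, 2.91, 5.91 and 2.80 in perineal tumours, against 10.76, 7.997 and 7.64 in perioral tumours, a difference of -4.24 ± 0.49. Krt31 was 4.90, 3.08, 4.04 and 3.28 in perineal tumours, against 9.41, 6.76 and 5.99 in perioral tumours, a difference of -3.56 ± 0.36. In both genes perioral tumour 1 was highest and perineal tumours 2 and 4 were lowest. Over the 10 hair or nail keratins, the mean level was 5.43, 3.49, 4.79 and 3.42 in perineal tumours and 9.17, 6.59 and 5.84 in perioral tumours. Over the 5 sheath keratins it was 4.76, 3.07, 4.83 and 3.14 in perineal tumours and 9.15, 6.99 and 6.45 in perioral tumours. Of 34 tested keratin-associated proteins, 32 were called lower in perineal tumours. Any of them tested only through the perioral tumours could hardly be called higher.

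Krt2 broke the order within the perioral group. It was 4.90, 3.45, 3.63 and 3.12 in perineal tumours, against 3.88, 10.10 and 9.76 in perioral tumours, so perioral tumour 1, the highest for hair keratins, was low for Krt2 and the groups overlapped. The fitted difference was -4.14 ± 0.59. The 3 members called higher in perineal tumours were the simple pair and Krt79. Krt18 exceeded all perioral samples in every perineal one by the values above, with a difference of 2.76 ± 0.43 (adjusted p = 6.4e-06), and Krt8 differed by 3.45 ± 0.58 (adjusted p = 3.4e-05) with overlap. Krt79 was 11.98, 12.48, 11.68 and 12.45 in perineal tumours, against 10.03, 10.71 and 10.95 in perioral tumours, a difference of 1.58 ± 0.44 (adjusted p = 0.022).

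None of the 9 basal, mucosal and activation keratins was called between the sites by limma with all samples and the brightest probe sets. At an unadjusted p under 0.05, the 3 mucosal keratins Krt4, Krt13 and Krt78 were lower in perineal tumours, 0 of 3 basal and 0 of 3 activation keratins passed, and Krt13 stood at -2.48 (adjusted p = 0.056). Krt13 was called lower when probe sets were averaged per gene (-2.88, adjusted p = 0.00031), which gave 18 lower calls, and without perineal tumour 3 (-3.09, adjusted p = 0.01). Of the 14 regulators of stratified epithelium 0 were called, with 1 lower at an unadjusted p under 0.05, and of 18 desmosome genes 1 was, Pkp2 at 2.85 ± 0.39. Krt79 lost its call without perineal tumour 2 or 4 or perioral tumour 1 or 2, Krt36 without perineal tumour 4 or perioral tumour 1, and Krt84 without perioral tumour 1.

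**Figure D3:**
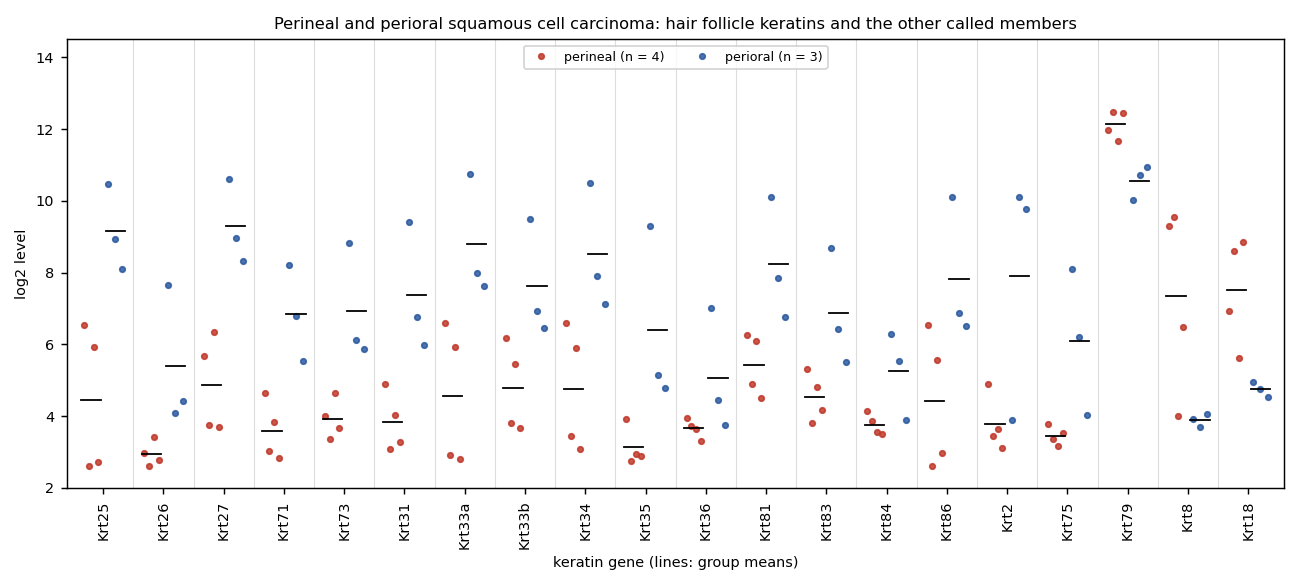
Log2 level in each of the 4 perineal (left) and 3 perioral (right) squamous cell carcinomas for the 15 inner root sheath and hair or nail keratins and for Krt2, Krt75, Krt79, Krt8 and Krt18, 1 point per tumour with lines at the group means. For the sheath keratin Krt25 all perineal points lie at or below 6.53 and all perioral points at or above 8.09, while Krt18 and Krt79 have all perineal points above the perioral ones.

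Among Prominin1-sorted cells of 8 organs, 25 keratins were tested and 22 differed between organs by limma's moderated F-test with a range of organ means of at least 1. This share lies near the 86.5% of all genes that differed, so the count itself shows nothing about keratins, and the profile of each member is what the data offer. All 6 simple keratins were among the 22, and no inner root sheath keratin was bright enough to be tested.

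Krt8 had its highest mean in small intestine cells (12.89 ± 0.12, SD, n = 3) and its lowest in lung cells (7.36 ± 0.32, n = 4), with kidney cells at 9.72 ± 0.06 (n = 4; adjusted p = 3.4e-14). Krt18 had its highest mean in salivary gland cells (12.82 ± 0.09, n = 3), and was low in lung (6.27 ± 1.31, n = 4) and kidney cells (5.88 ± 0.40, n = 4), which do not differ beyond their spread. Krt18 ran from 5.34 to 6.28 in the 4 kidney samples. Probe sets differ in response, so levels of Krt8 and Krt18 cannot be set against each other as amounts.

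Krt19 spanned the widest range of the family, 9.14, with 12.38 ± 0.21 in small intestine cells (n = 3) and 3.24 ± 0.18 in kidney cells (n = 4). Krt20 was 11.69, 10.56 and 10.59 in the 3 small intestine samples and averaged 7.75 ± 0.18 in stomach (n = 2) and 5.24 ± 1.0006 in uterus cells (n = 4), while the other organs had means between 3.41 and 3.86 (adjusted p = 8.3e-19). Krt7 was highest in uterus (10.66 ± 0.53, n = 4) and salivary gland cells (9.99 ± 0.12, n = 3) and lowest in untreated liver cells (3.48 ± 0.16, n = 5). Krt23, an inducible type I keratin, averaged 9.48 ± 0.23 in stomach (n = 2) and 8.82 ± 0.13 in salivary gland cells (n = 3), against 2.91 ± 0.09 in kidney cells (n = 4).

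A few members marked 1 organ. Krt79 was 7.49, 10.54, 11.06 and 9.34 in lung cells, and means of the other organs lay between 3.50 and 5.41 (adjusted p = 3.4e-15). Krt80 was also highest in lung cells (8.65 ± 1.45, n = 4). Lung cells had endothelial markers (Pecam1, Cdh5, Kdr and Tek) at mean levels of 8.04 to 11.43 and leukocyte markers at 6.97 to 8.45. Fibroblast markers were at 6.72 to 8.07 and general epithelium markers (Epcam, Cdh1, Cldn7, Esrp1 and Rab25) at 5.28 to 5.88. Lung sample 3, the highest for Krt79, had the highest median (4.24) and the lowest 75th percentile (5.76) of all arrays. The part of these values in the keratin levels was not tested. Krt84, a type II keratin of nail and tongue, was 6.31, 7.17, 5.84 and 5.78 in uterus cells, while other organs averaged at most 3.73 (adjusted p = 3e-12). Krt15 was highest in prostate cells (7.21 ± 0.73, n = 3; adjusted p = 4.9e-08), where Krt4 was also highest.

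The 2 stomach samples differed in their stratified keratins. Stomach sample 2 had 9.54 for Krt6b, 7.98 for Krt13, 7.45 for Krt5 and 7.19 for Krt14, and sample 1 had 3.46, 3.71, 5.10 and 4.19 for the same genes in the same order. Trp63 was 4.73 in sample 2 and 2.76 in sample 1. The mouse stomach has a stratified forestomach beside its glandular part, and the labels do not say which part was dissociated.

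In liver, neonatal cells carried the whole set of simple keratins above untreated cells. Of 11 tested members, 6 were called higher and 1 lower, against 22.0% and 8.63% of all genes. The 6 were every simple keratin measured. The share of lower calls lies near that of all genes, so that count shows nothing about keratins. By group means, 3 simple keratins exceeded the floor in untreated cells and 6 in neonatal cells. Members tested only through neonatal cells could hardly be called lower, so the direction of the count says little. Krt19, which marks bile duct cells and their precursors, was 8.58, 7.57 and 8.79 in neonatal cells, against 4.20, 5.48, 3.44, 2.93 and 4.97 in untreated cells. Krt7 was 7.68, 6.88 and 7.82 in neonatal cells, against 3.29, 3.45, 3.46, 3.46 and 3.73 in untreated cells. The groups did not overlap for either biliary keratin, and the differences were 4.11 ± 0.78 for Krt19 (adjusted p = 7.6e-05) and 3.98 ± 0.81 for Krt7 (adjusted p = 0.00017).

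Krt20 was 7.52, 7.98 and 7.07 in neonatal cells, against 3.62, 3.39, 3.60, 3.81 and 4.19 in untreated cells, a difference of 3.80 ± 0.36 (adjusted p = 3.9e-10). Krt23 was 6.11, 6.27 and 5.86 in neonatal cells, against 3.83, 3.74, 3.17, 2.87 and 3.33 in untreated cells, a difference of 2.69 ± 0.43 (adjusted p = 6.1e-06). Neither keratin is typical of adult liver, and no neonatal sample overlapped an untreated one. Krt8 was 11.86, 11.78 and 11.85 in neonatal cells, against 9.43, 8.64, 9.79, 10.22 and 10.08 in untreated cells, a difference of 2.20 ± 0.41 (adjusted p = 5.5e-05).

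Krt18 was 11.69, 11.74 and 11.76 in neonatal cells, against 9.89, 8.51, 11.32, 10.73 and 10.89 in untreated cells, and its difference of 1.47 ± 0.57 (adjusted p = 0.038) passed narrowly. It lost its call after quantile normalization (1.30, adjusted p = 0.079) and in a fit of the 2 groups alone (adjusted p = 0.084), and without untreated sample 1 or 2 or any 1 neonatal sample. Krt80 was called lower at -1.25 ± 0.43 (adjusted p = 0.02), a call that ended in the fit of the 2 groups alone (adjusted p = 0.061) and without untreated sample 2 or neonatal sample 1 or 3. All 5 general epithelium markers were called higher in neonatal cells as well, and the part of a different mix of cells was not tested. The median of all genes stood at 0.31 in this comparison, and after quantile normalization at 0.09, with 1964 genes higher and 1391 lower in place of 2468 and 966.

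DDC-treated cells had the hepatocyte pair Krt8 and Krt18 above untreated cells. Both genes were also called higher against the same untreated cells in neonatal cells and in HCC/CC tumours. Of 11 tested members, 3 were called higher and 1 lower in DDC-treated cells, against 16.2% and 5.49% of all genes. Krt8 had a lowest, median and highest level of 10.19, 13.0006 and 13.26 in the 9 DDC samples, against 9.43, 8.64, 9.79, 10.22 and 10.08 in untreated samples. Only DDC sample 2 fell within the untreated range, and the difference was 2.94 ± 0.31 (adjusted p = 7.6e-09). Krt18 had 9.60, 12.53 and 12.90 in DDC samples, against 9.89, 8.51, 11.32, 10.73 and 10.89 in untreated samples, a difference of 1.91 ± 0.44 (adjusted p = 0.00073). Krt8 and Krt18 are the components of the Mallory-Denk bodies for which DDC feeding is known.

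Ductal keratins varied among DDC samples. Krt7 was 3.37, 3.32, 5.96, 8.01, 4.32, 7.13, 6.99, 3.62 and 3.39 in DDC samples 1 to 9, against 3.29, 3.45, 3.46, 3.46 and 3.73 in untreated samples. Samples 4, 6 and 7 were highest, and these had the highest Epcam too, at 9.69, 8.88 and 8.88 against 3.32 to 7.65 in the other DDC samples. The difference for Krt7 was 1.65 ± 0.62 (adjusted p = 0.031), which ended in a fit of the 2 groups alone (adjusted p = 0.12) and without DDC sample 4, 6 or 7 or untreated sample 3 or 4. Krt19 at 1.40 (adjusted p = 0.056), Krt20 at 0.61 and Krt23 at 0.82 were not called. Without DDC sample 2, Krt19 (1.72, adjusted p = 0.012) and Krt23 (1.001, adjusted p = 0.0084) were called and the higher calls numbered 5. Krt80 was called lower at -1.04 ± 0.33 (adjusted p = 0.011), but not without untreated sample 2 (-0.73) or DDC sample 3 (-0.99). After quantile normalization 1338 genes were higher and 911 lower, in place of 1773 and 599, and the median of all genes was 0.07 in place of 0.25.

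HCC/CC tumours were set against the same untreated liver cells, so these samples are shared with the comparisons above, and tumours and sorted cells also differed in dissection, sorting and extraction kit. In this and all tumour comparisons with sorted cells, tumour and handling cannot be told apart. Of 11 tested members, 3 were called higher and 1 lower, against 17.4% and 6.23% of all genes. Krt8 had a lowest, median and highest level of 10.92, 12.002 and 13.02 in the 14 tumours, all above the untreated cells, with a difference of 2.49 ± 0.30 (adjusted p = 7.7e-06). Krt18 had 10.80, 11.98 and 12.89 in tumours, overlapping the untreated cells, with a difference of 1.66 ± 0.39 (adjusted p = 0.0021). Krt80 was called lower at -1.02 ± 0.26 (adjusted p = 0.0047). Its difference fell under 1 without tumour 6, 8, 9, 10, 12 or 13, and was -0.70 without untreated sample 2. Smooth muscle markers averaged 4.18 to 6.24 in tumours and 3.38 to 3.97 in untreated cells, with 1 of 3 above the floor in each, and fibroblast markers 5.48 to 7.70 in tumours, with 3 of 5 above the floor, against 4.48 to 5.48 in untreated cells, with 2 of 5. Their part was not tested.

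The ductal and intestinal keratins spread widely over the 14 tumours. Krt20 ranged from 3.71 through a median of 5.12 to 10.23, with a difference of 2.24 ± 0.87 (adjusted p = 0.044) that lost its call without tumour 3, 12, 13 or 14 or any 1 of the 5 untreated samples. Krt19 ranged from 3.10 through 5.79 to 11.58, Krt7 from 3.28 through 4.75 to 11.002, and Krt23 from 2.99 through 4.17 to 7.43, and none of these passed (adjusted p of 0.14 for Krt19, 0.082 for Krt7 and 0.11 for Krt23). Tumours 2 and 11 were highest for Krt19 (11.58 and 10.93) and Krt20 (9.86 and 10.23), and they were also highest for Epcam (12.24 and 11.78) and for Cftr, a chloride channel of duct cells (8.79 and 8.75). After quantile normalization 1433 genes were higher and 987 lower, in place of 1925 and 690, and the median of all genes was 0.11 in place of 0.30.

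The 2 metastases of HCC/CC, to intestine and to lung, had 9.91 and 10.95 for Krt19, 11.03 and 10.74 for Krt20, and 13.0004 and 13.08 for Krt8. The levels of Krt20 were above those of all 14 primary tumours. Krt23 was 3.04 in the intestinal and 8.11 in the lung metastasis. Hepatoblastoma 1 had 9.23 for Krt20 and 7.99 for Krt23, and hepatoblastoma 2 had 2.80 and 2.93. Upk3a, a urothelial plaque gene, was 11.92 in the first and 3.57 in the second. The lung metastasis of hepatoblastoma had 6.05 for Krt20, 6.81 for Krt23 and 12.17 for Upk3a.

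**Figure D4:**
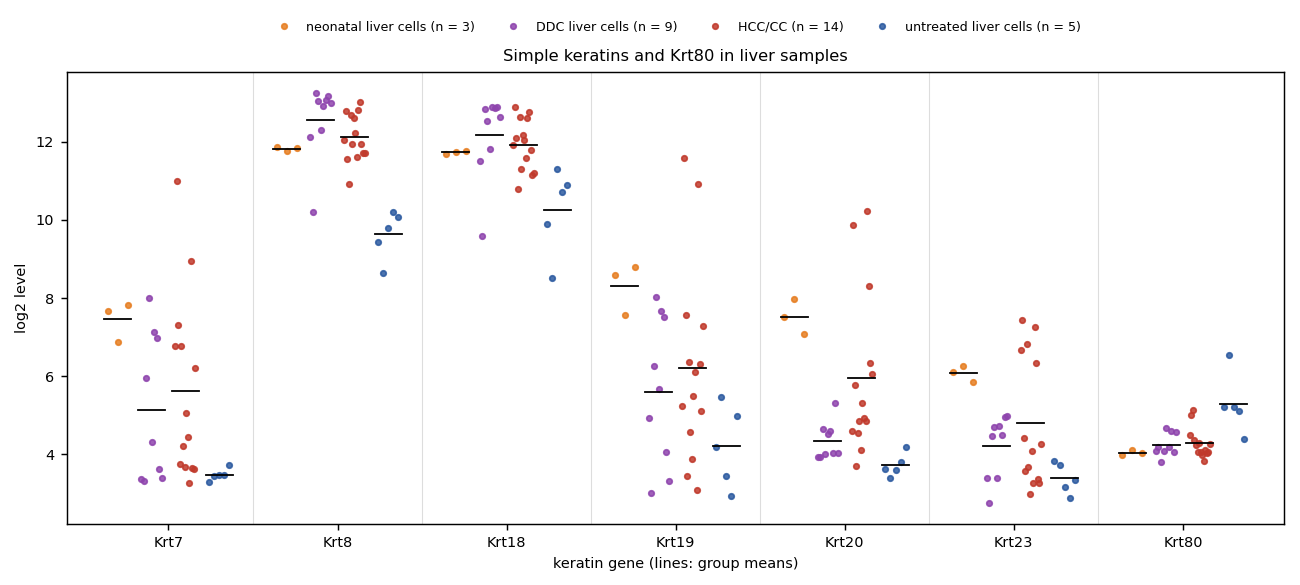
Log2 level of Krt7, Krt8, Krt18, Krt19, Krt20, Krt23 and Krt80 in each neonatal liver, DDC-treated liver and HCC/CC sample and in the 5 untreated liver samples (rightmost), 1 point per sample with lines at the group means. Neonatal points sit above all untreated points for the 6 simple keratins, and Krt7 in DDC samples runs from 3.32 to 8.01.

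In prostatic adenocarcinoma, 8 of 18 tested keratins were called higher than in sorted prostate cells and 0 lower, against 12.4% and 8.69% of all genes. By limma 0 members were lower at an unadjusted p under 0.05 as well. By group means 19 keratins exceeded the floor in tumours and 15 in prostate cells. Members tested only through the tumours could hardly be lower, so the direction of the count says little. Krt7 was 11.42, 11.48, 11.83, 10.67, 11.62, 11.30, 10.57 and 10.81 in tumours, against 7.49, 7.46 and 7.99 in prostate cells. All tumours stood above all sorted samples, with a difference of 3.57 ± 0.27 (adjusted p = 8.1e-06). Krt19 differed by 1.19 ± 0.14 (adjusted p = 9.4e-05), also without overlap. The 3 measured smooth muscle markers had mean levels of 7.21 to 10.53 in tumours, where all 3 exceeded the floor, against 5.04 to 5.76 in prostate cells, where 2 did. Leukocyte markers averaged 4.95 to 6.15 in tumours, with 3 of 5 above the floor, against 6.47 to 7.49 in prostate cells, with 4 of 5. The actin 3' minus 5' difference was 0.72 in tumours and 1.05 in prostate cells, and the part of these values in the keratin differences was not tested.

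Of the keratins of stratified and activated epithelium, Krt6a and Krt4 were called higher in prostatic tumours and 5 other tested members were not. The 3 basal keratins Krt5, Krt14 and Krt15 differed by 0.37, 0.68 and 0.997, the suprabasal Krt10 by -0.16 and the mucosal Krt78 by 0.43. Krt6a was 7.80, 8.39, 8.15, 7.24, 7.70, 7.43, 6.82 and 3.97 in tumours 1 to 8, against 3.46, 3.43 and 3.69 in prostate cells, a difference of 3.66 ± 0.74 (adjusted p = 0.0029). Krt4 was 9.78, 8.04, 9.54, 8.15, 9.61, 9.84, 7.91 and 10.47 in tumours, against 5.75, 7.09 and 7.15 in prostate cells, a difference of 2.50 ± 0.56 (adjusted p = 0.0052). Neither gene's groups overlapped, but tumour 8 was lowest for Krt6a and highest for Krt4. Krt23 was 9.63, 9.77, 10.47, 9.86, 10.31, 9.49, 9.59 and 6.61 in tumours, against 5.07, 6.45 and 6.67 in prostate cells, a difference of 3.41 ± 0.68 (adjusted p = 0.0027), with tumour 8 inside the range of sorted cells.

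Tumour 8 also stood apart in genes of other cell types. Upk1a, a urothelial plaque protein, was 7.37 in it and 2.99 to 3.37 in the other 7 tumours, and Ckm, muscle creatine kinase, was 8.87 in it and 2.63 to 3.03 in the others. Tumour 2 had 11.15 for Krt20, and the others had 2.84 to 5.99. Krt73, an inner root sheath keratin by its known site, was 6.57, 5.80, 7.83, 8.36, 5.96, 4.82, 6.66 and 4.43 in tumours, against 3.93, 3.69 and 3.81 in prostate cells. Its difference of 2.49 ± 0.72 (adjusted p = 0.017) lost its call without any 1 of the 3 prostate cell samples, and that of Krt80, 1.94 ± 0.51 (adjusted p = 0.011), without prostate cell sample 2. Krt36, a hair keratin, differed by 1.44 ± 0.31 (adjusted p = 0.004). Of 16 tested desmosome genes 11 were called higher and 0 lower, and of 14 regulators of stratified epithelium 4 were called higher and 1 lower. Quantile normalization turned the calls over all genes to 1020 higher and 1229 lower, in place of 1362 and 954, with the median of all genes at -0.03 in place of 0.14.

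Gastric adenomas had more Krt20, Krt7 and Krt19 than the 2 samples of sorted stomach cells. Of 24 tested members, 4 were called higher and 2 lower, against 8.07% and 3.07% of all genes. Krt20 was 11.53, 12.23, 12.35, 11.79, 12.12, 11.73 and 12.29 in adenomas, against 7.63 and 7.88 in stomach cells, a difference of 4.25 ± 0.22 (adjusted p = 4.3e-05). Krt7 was 11.56, 11.55, 11.51, 10.70, 12.59, 12.16 and 11.76 in adenomas, against 9.49 and 8.73 in stomach cells, a difference of 2.58 ± 0.40 (adjusted p = 0.0041). No adenoma overlapped the sorted cells for either gene. Krt19 differed by 1.32 ± 0.16 (adjusted p = 0.0015). Smooth muscle markers averaged 6.51 to 8.67 in adenomas, with 3 of 3 above the floor, against 3.43 to 4.28 in stomach cells, with 1 of 3. Fibroblast markers averaged 5.80 to 7.68 in adenomas, with 3 of 5 above the floor, against 3.73 to 4.58 in stomach cells, with 2 of 5. The actin 3' minus 5' difference was 0.70 in adenomas and 1.09 in stomach cells, and the part of these values was not tested.

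Krt12, known from the corneal epithelium, was 5.54, 7.19, 7.26, 7.75, 8.23, 3.62 and 7.56 in adenomas, against 2.92 and 2.99 in stomach cells. All adenomas lay above, with adenoma 6 lowest, and the difference was 3.78 ± 1.02 (adjusted p = 0.032), which lost its call without adenoma 2, 3, 5 or 7 (3.53 to 3.70, adjusted p of 0.052 to 0.058) or either stomach sample (3.74 and 3.82, adjusted p = 0.13). With 1 stomach sample left out, the other is assumed to vary like the adenomas, which then give the spread. Krt10 at -1.41 ± 0.41 (adjusted p = 0.041) and Krt1 at -1.89 ± 0.50 (adjusted p = 0.029) were called lower. Both calls ended without stomach sample 2, the one with stratified keratins, where Krt10 differed by -0.52 and Krt1 by -0.72. Krt10 also lost its call without adenoma 1, 2, 3, 5, 6 or 7 (adjusted p of 0.055 to 0.066). Krt1 lost its own without adenoma 5 or 7 (adjusted p of 0.051 and 0.053). After quantile normalization 610 genes were higher and 616 lower, in place of 884 and 336, and the median of all genes was -0.09 in place of 0.11.

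The genes of Krt12 and Krt20 are neighbours on chromosome 11, and their promoters are shown because both keratins were high in gastric adenoma and Krt12 differed again between intestinal sites. In GRCm38.p6 from RefSeq they are chr11:99422260-99422509 and chr11:99438154-99438403, both on the minus strand and printed 5′ to 3′. Capitals mark TATAAA, which lies from base 29 to 24 before the start in both.
Krt12: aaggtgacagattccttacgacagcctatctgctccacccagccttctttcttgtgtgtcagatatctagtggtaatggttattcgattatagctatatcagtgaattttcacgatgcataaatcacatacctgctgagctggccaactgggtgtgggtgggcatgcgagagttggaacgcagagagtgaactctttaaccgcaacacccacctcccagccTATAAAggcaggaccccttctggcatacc
Krt20: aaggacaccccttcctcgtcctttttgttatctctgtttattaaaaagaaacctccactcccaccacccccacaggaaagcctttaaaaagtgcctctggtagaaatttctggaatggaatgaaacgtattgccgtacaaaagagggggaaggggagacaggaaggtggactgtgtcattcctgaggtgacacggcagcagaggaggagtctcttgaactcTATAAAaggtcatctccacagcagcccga

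Gastric adenocarcinoma had lower stratified keratins than gastric adenoma. Of 21 tested members, 9 were called lower and 0 higher, against 11.4% and 13.7% of all genes. By limma 0 were higher at an unadjusted p under 0.05. By group means 21 keratins exceeded the floor in adenomas and 12 in adenocarcinomas. Members tested only through the adenomas could hardly be called higher, so the direction of the count says little. With a 60th percentile filter 2 lower calls remained. Krt5 was 3.69, 3.40, 3.50 and 3.70 in adenocarcinomas, against 3.92, 5.82, 8.52, 6.31, 8.70, 3.52 and 6.41 in adenomas, a difference of -2.60 ± 0.65 (adjusted p = 0.0011). Adenocarcinomas all lay under the floor, as did adenomas 1 and 6, and the groups overlapped at adenoma 6. Krt42 was 6.35, 5.70, 5.75 and 6.27 in adenocarcinomas, against 6.96, 7.25, 7.94, 7.44, 7.23, 6.56 and 7.48 in adenomas, with no overlap and a difference of -1.25 ± 0.22 (adjusted p = 7.9e-06). Krt79 differed by -1.90 ± 0.36 (adjusted p = 3e-05) and Krt13 by -2.02 ± 0.63 (adjusted p = 0.0082), also with every adenocarcinoma below every adenoma.

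The others called were Krt14 at -2.56 ± 0.84 (adjusted p = 0.011), Krt15 at -2.31 ± 0.71 (adjusted p = 0.0073), Krt12 at -2.15 ± 0.64 (adjusted p = 0.0056), Krt6b at -1.98 ± 0.71 (adjusted p = 0.021) and Krt6a at -1.83 ± 0.73 (adjusted p = 0.038). A fit of the 2 groups alone kept Krt5, Krt12, Krt13, Krt42 and Krt79, lost Krt14, Krt15, Krt6a and Krt6b, and added Krt20 at -2.10 and Krt19 at -1.51. Krt12 lost its call without adenocarcinoma 2, Krt6b without adenoma 2 or 3, and Krt6a without any of adenocarcinomas 1 to 3 or adenomas 2, 3 and 5, with no filter (adjusted p = 0.055) and with probe sets averaged per gene (-1.11, adjusted p = 0.14). Krt4 gained a call without adenoma 1 (-1.95, adjusted p = 0.036). Of 11 tested regulators of stratified epithelium, 9 were called lower. General epithelium markers averaged 6.17 to 9.31 in adenocarcinomas and 10.42 to 10.97 in adenomas, and Vim, the mesenchymal intermediate filament, differed by 2.96 ± 0.45. The part of fewer epithelial cells in the keratin differences was not tested. The metastases of gastric adenocarcinoma to abdomen and liver had 10.76 and 11.22 for Krt7 and 7.63 and 6.84 for Krt20, and Krt20 ran from 8.47 to 10.63 in the 4 primary adenocarcinomas, above both metastases.

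Small intestinal adenomas carried more Krt23, Krt7 and Krt18 than sorted small intestine cells. Of 13 tested members, 3 were called higher and 0 lower, against 13.6% and 8.43% of all genes, and by limma 2 were lower at an unadjusted p under 0.05. Krt23 was 10.21, 9.35 and 10.17 in adenomas, against 4.82, 5.79 and 5.48 in sorted cells, a difference of 4.55 ± 0.33 (adjusted p = 0.00042). Krt7 was 10.86, 11.002 and 11.76 in adenomas, against 8.62, 8.93 and 8.85 in sorted cells, a difference of 2.41 ± 0.25 (adjusted p = 0.0011). The groups did not overlap for either. Krt18 was 12.62, 12.58 and 12.70 in adenomas, against 10.32, 11.23 and 11.02 in sorted cells, a difference of 1.77 ± 0.23 (adjusted p = 0.0025). Smooth muscle markers averaged 8.41 to 8.71 in adenomas, with 3 of 3 above the floor, against 3.49 to 3.91 in sorted cells, with 1 of 3. Fibroblast markers averaged 5.68 to 6.74 in adenomas, with 3 of 5 above the floor, against 3.55 to 4.11 in sorted cells, with 2 of 5. The actin 3' minus 5' difference was 0.59 in adenomas and 0.99 in sorted cells, and the part of these values was not tested. After quantile normalization 1192 genes were higher and 1186 lower, in place of 1505 and 934, and the median of all genes was -0.05 in place of 0.12.

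Large and small intestinal adenomas differed in 2 of 12 tested keratins, 1 in each direction, against 6.60% of all genes higher and 6.32% lower. The counts lie near these shares and so show nothing about keratins in themselves. Krt23 was 7.66, 2.97, 5.29, 6.88 and 3.45 in large intestinal adenomas, against 10.21, 9.35 and 10.17 in small intestinal adenomas, a difference of -4.66 ± 1.04 (adjusted p = 0.0013). Krt12 was 4.52, 6.49, 7.09, 4.43 and 8.08 in large intestinal adenomas, against 2.80, 3.39 and 3.07 in small intestinal adenomas, a difference of 3.04 ± 0.75 (adjusted p = 0.0035). Neither gene's groups overlapped. Large intestinal adenoma 1 also had 6.42 for Krt5, 7.45 for Krt14 and 7.52 for Krt15, which the other 4 had at 3.60 or less.

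Uterine carcinomas 1 and 3 had a stratified keratin profile that uterine carcinoma 2 had not. Krt6b was 8.85, 3.58 and 11.43, Krt13 was 9.20, 3.56 and 9.56, and Krt15 was 9.92, 4.87 and 8.11 in carcinomas 1, 2 and 3. Of 23 tested members, 3 were called higher and 2 lower than in sorted uterus cells, against 8.57% and 10.1% of all genes. The share of lower calls lies near that of all genes, so that count shows nothing about keratins. Krt14 was 9.31, 5.88 and 10.20 in carcinomas, against 3.72, 4.20, 3.42 and 6.07 in uterus cells, a difference of 4.11 ± 1.04 (adjusted p = 0.022). Krt5 was 9.42, 5.73 and 7.96 in carcinomas, against 3.84, 5.26, 4.79 and 6.31 in uterus cells, a difference of 2.66 ± 0.87 (adjusted p = 0.05 as rounded, under the limit). The call of Krt5 ended after quantile normalization (adjusted p = 0.053), with no filter (0.067), with probe sets averaged per gene (0.06) and without probe sets marked as matching several transcripts, where the adjusted p lay just over the limit. Carcinoma 2 lay within the range of sorted cells for both basal keratins.

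Krt84 was 3.71, 3.11 and 3.33 in carcinomas, against 6.31, 7.17, 5.84 and 5.78 in uterus cells, with no overlap and a difference of -2.89 ± 0.37 (adjusted p = 0.0015). Krt80 at -1.41 ± 0.39 (adjusted p = 0.03) was the other lower call and Krt79 at 1.32 ± 0.37 (adjusted p = 0.029) the other higher one. Without carcinoma 1 or 3 or uterus sample 1, 2 or 3, Krt14 and Krt5 lost their calls. Krt79 lost its own without carcinoma 2 or 3 or uterus sample 2 or 3, and Krt80 without carcinoma 2 or uterus sample 2, 3 or 4. Leaving out carcinoma 3 left 0 higher calls, and leaving out carcinoma 2 gave 7. Trp63 was 5.73, 3.52 and 5.57 in carcinomas, against 2.75, 3.35, 2.97 and 3.09 in uterus cells, a difference of 1.90 ± 0.54 (adjusted p = 0.031). Leukocyte markers averaged 5.39 to 6.65 in carcinomas, with 3 of 5 above the floor, against 7.75 to 8.23 in uterus cells, with 4 of 5, and their part was not tested. The metastases of uterine carcinoma to abdomen and liver had 11.42 and 11.98 for Krt5, 12.29 and 12.44 for Krt14, 11.45 and 11.57 for Krt6b and 10.42 and 10.95 for Krt13, all above the highest primary carcinoma. Krt1 was 4.23 and 3.11 in them.

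Bronchopulmonary adenocarcinomas, of which there were 2, had simple keratins far above sorted lung cells. Of 11 tested members, 4 were called higher and 1 lower, against 5.73% and 2.38% of all genes. Krt18 was 11.80 and 12.40 in tumours, against 7.09, 6.83, 4.31 and 6.83 in lung cells, a difference of 5.84 ± 0.77 (adjusted p = 0.0011). Krt8 was 11.33 and 12.17 in tumours, against 7.64, 7.47, 6.90 and 7.41 in lung cells, a difference of 4.39 ± 0.48 (adjusted p = 0.00046). The groups lay far apart for both.

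Krt7 was 12.11 and 11.69 in tumours, against 8.06, 5.16, 4.42 and 7.82 in lung cells, a difference of 5.53 ± 0.97 (adjusted p = 0.0053). Krt23 was 8.63 and 8.05 in tumours, against 3.38, 3.25, 3.28 and 4.27 in lung cells, a difference of 4.80 ± 0.58 (adjusted p = 7e-04). Krt79 was 4.27 and 7.02 in tumours, against 7.49, 10.54, 11.06 and 9.34 in lung cells, a difference of -3.96 ± 1.004 (adjusted p = 0.035) that did not pass after quantile normalization (adjusted p = 0.052), with no filter (0.054), with probe sets averaged per gene (0.07) or without tumour 1 or lung sample 2, 3 or 4. Krt7 lost its call without tumour 1 (5.32, adjusted p = 0.062). Without tumour 1 the lone tumour is assumed to vary like the lung cells, which then give the spread. All 5 general epithelium markers were called higher in the tumours, where their mean level was 9.96 in both, against 5.28 to 5.88 in lung cells, and leukocyte markers averaged 5.92 and 6.28 in tumours, against 6.97 to 8.45 in lung cells. The part of the mix of cells was not tested. After quantile normalization 567 genes were higher and 435 lower, in place of 642 and 266, and the median of all genes was 0.13 in place of 0.36.

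**Figure D5:**
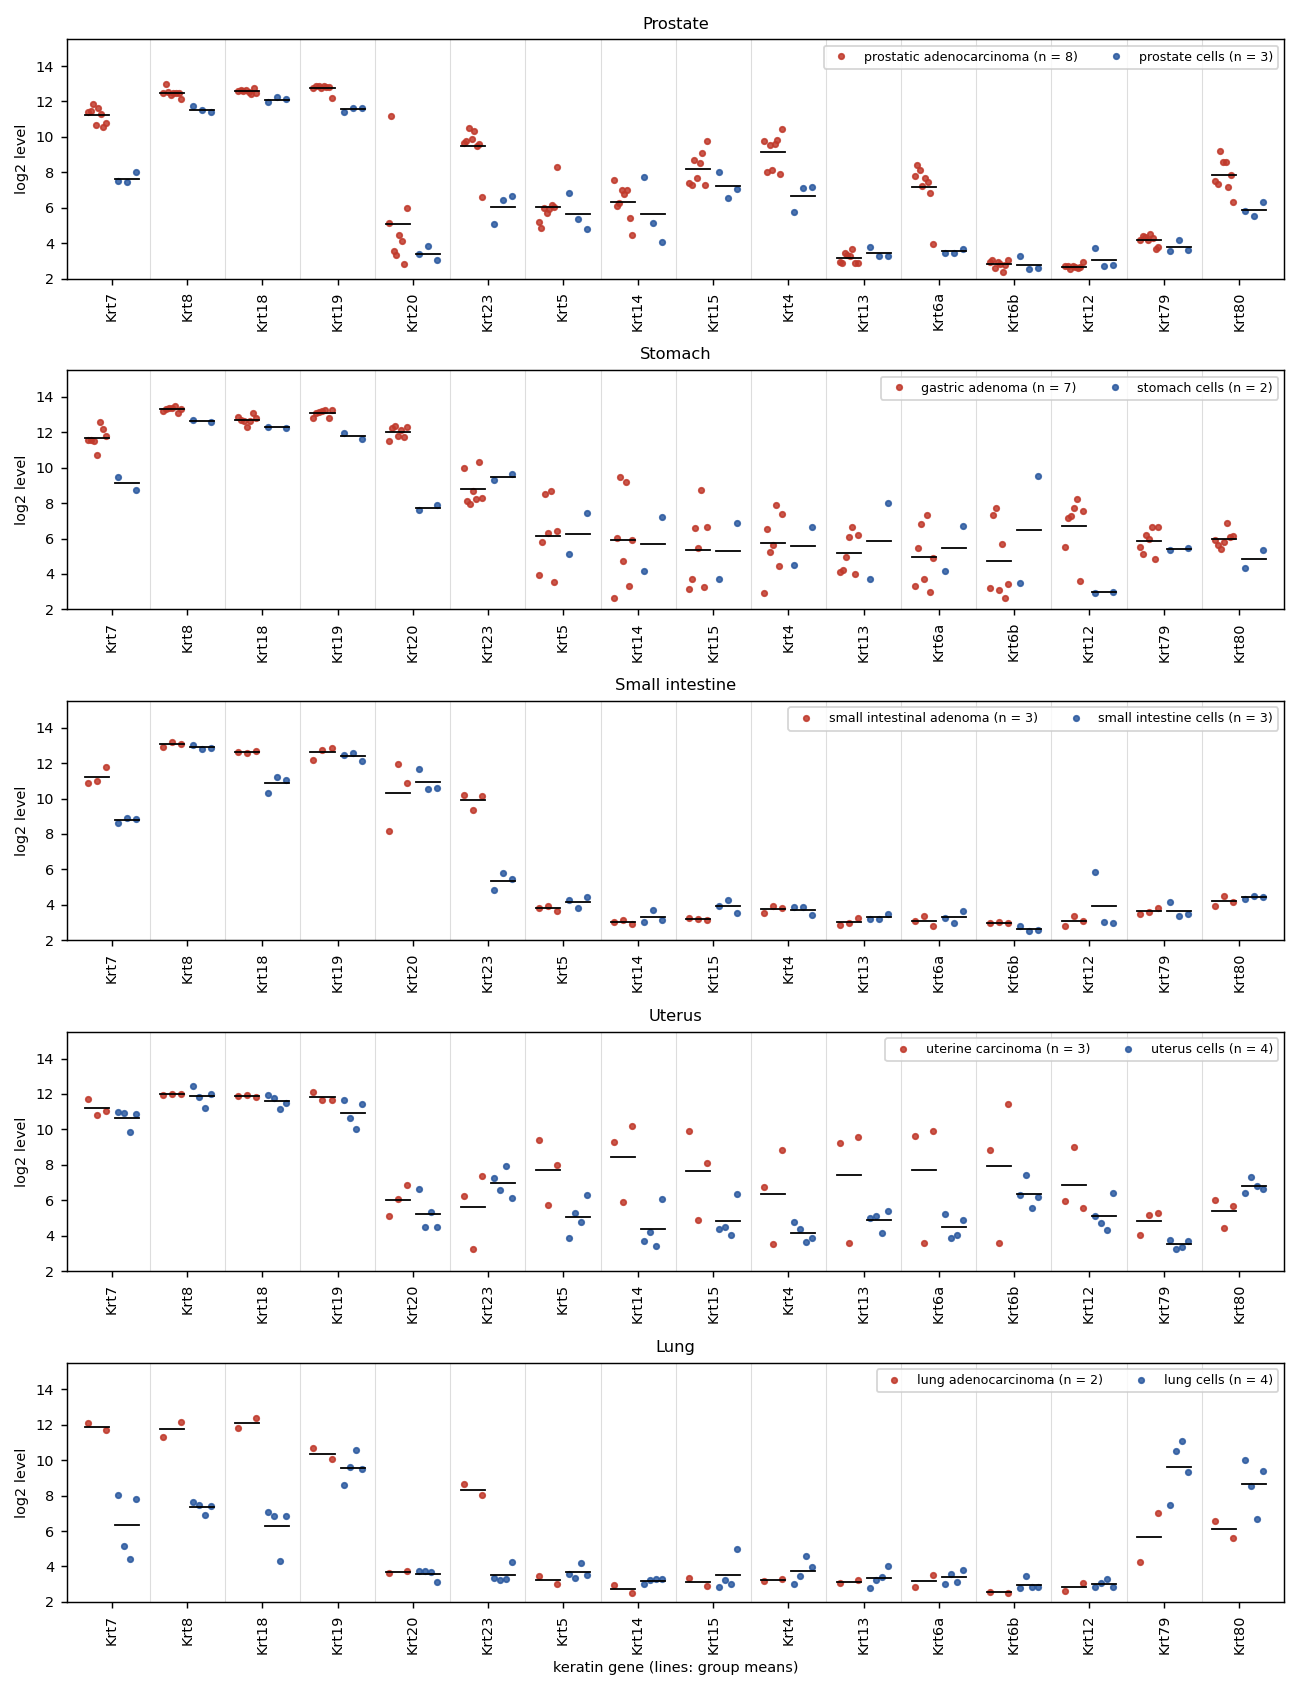
Log2 level of 16 keratins in each primary tumour (left in each pair) and each sample of sorted cells of the same organ (right) for prostate, stomach, small intestine, uterus and lung, 1 point per sample with lines at the group means. Krt7 tumour points lie above all sorted points in prostate, stomach, small intestine and lung, and Krt14 in uterine carcinoma has 1 tumour within the range of the sorted cells.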

How the data were processed

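Each sample was hybridised to 1 Affymetrix mouse array (40 sorted, 56 primary tumours, 7 metastases). Per the labels' protocols, RNA of dissected tumours was taken with the RNeasy Mini kit and that of cells bound by anti-Prominin1 beads with PicoPure. The deposited values are log2 levels, judged by their span (1.85 to 14.36). Partek 6.6 was used per the submitters' processing notes, while the steps of background correction, normalization and summary per probe set are unstated in the labels and headers. No further scaling was applied and no count of reads exists, so the number of arrays limits the precision.

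Of 45141 probe sets, 28898 named a single gene in the platform annotation, 551 named several and were left out, and 28689 matched RefSeq by gene number. Each of 17097 genes was represented by its brightest probe set over all arrays. Comparisons used limma 3.58.1 under R 4.3.3 (lmFit, contrasts, eBayes with trend) over all genes whose mean exceeded the 40th percentile in at least 1 compared group, with Benjamini-Hochberg adjustment, a limit of 0.05 and a log2 difference of at least 1. A gene that passed this filter through only 1 group could hardly be called lower in that group, which limits the direction of all counts of calls. Comparisons among tumours used 55 primary tumours (44 residual degrees of freedom), those among sorted cells 40 samples (30), and tumours against sorted cells only the groups compared. Scripts were tested on simulated data. Alternatives were quantile normalization, filters at no level or at the 60th percentile, averaging over probe sets per gene, dropping probe sets marked as matching several transcripts, other samples in the fit, and each sample left out.

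The members, gene lists and comparisons were chosen with earlier results of these data known. Full values are given for 17 listed keratins (Krt17 was not measured) and for up to 8 called members with the largest difference in each comparison. Krt12, Krt36, Krt73, Krt79, Krt80 and Krt84 among others are named under the second part. Samples are numbered in the order of their accession within a group. Promoters are the 250 bases before the start of RefSeq transcripts in GRCm38.p6.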

Additional observations from a re-analysis of the deposited data

Results flagged for a closer look

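In groups of 4 to 10 samples, 106 sets of 1 keratin in 1 group were checked for a highest or lowest sample far from the rest, and 18 were found, where chance gives about 1 in 20. Prostatic adenocarcinoma 8 stood apart for Krt5 (8.30, others 4.86 to 6.14), Krt6a (3.97, others 6.82 to 8.39), Krt19 (12.18, others 12.75 to 12.89) and Krt23 (6.61, others 9.49 to 10.47). Prostatic adenocarcinoma 2 stood apart for Krt8 (12.99, others 12.11 to 12.52) and Krt20 (11.15, others 2.84 to 5.99).

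Large intestinal adenoma 1 stood apart for Krt5 (6.42, others 3.05 to 3.60), Krt14 (7.45, others 2.68 to 3.54), Krt15 (7.52, others 3.17 to 3.58), Krt13 (5.14, others 3.20 to 3.69) and Krt6a (5.90, others 2.98 to 3.59). Gastric adenocarcinoma 2 was low for Krt18 (12.30, others 12.95 to 13.01).

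Among sorted cells, DDC sample 2 was low for Krt8 (10.19, others 12.13 to 13.26) and Krt18 (9.60, others 11.52 to 12.90). Lung sample 3 was low for Krt18 (4.31, others 6.83 to 7.09) and lung sample 4 high for Krt23 (4.27, others 3.25 to 3.38). The array of lung sample 3 had the highest median (4.24) and the lowest 75th percentile (5.76) of all, and their part was not tested. Uterus sample 3 was low for Krt7 (9.86, others 10.88 to 10.96) and kidney sample 2 high for Krt5 (4.24, others 3.45 to 3.47).

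A pair of keratins moved in opposite directions between organs when tumours were set against sorted cells, and these differences between organs were not tested. Krt79 was higher in every uterine carcinoma than in every uterus sample, by 1.32, and lower in every lung tumour than in every lung sample, by -3.96. Krt80 was higher in every prostatic adenocarcinoma (1.94) and gastric adenoma (1.13), and lower in every uterine carcinoma (-1.41) and lung tumour (-2.57), than in every sorted sample of the organ.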

How the results depend on the processing

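Across the alternative settings, 1187 values of single named keratins kept their side of the threshold, 14 gained a call and 40 lost one. None turned round among those called in either setting, and the sign of uncalled values was not followed. Members removed by a filter are not in these counts. For samples left out, only the lowest and highest value of each keratin are counted. Of the counts of called keratins, 165 stayed within 1.5 times the count as reported and 24 did not. With only the compared tumours in the fit, 1 keratin was higher and 3 were lower in perineal against perioral carcinoma. With a 60th percentile filter, 0 keratins were lower in neonatal, 0 in DDC-treated and 0 in HCC/CC samples against untreated liver cells, 1 was lower in gastric adenoma, 2 in gastric adenocarcinoma against adenoma and 1 in uterine carcinoma, and 0 were higher in large against small intestinal adenoma, since fewer genes are tested. With only the compared groups in the fit, 0 were lower in neonatal cells. Quantile normalization gave 1 lower in small intestinal adenoma. For lung adenocarcinoma, 0 were lower with no filter and 0 with probe sets averaged per gene, the cause of which was not tested.

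With each sample left out, lower calls ranged from 0 to 2 in neonatal cells, from 0 to 1 in DDC-treated cells, HCC/CC, small intestinal adenoma and lung adenocarcinoma, from 0 to 2 in gastric adenoma and from 1 to 2 in uterine carcinoma. Higher calls ranged from 2 to 5 in DDC-treated cells, with 5 without DDC sample 2, and from 0 to 7 in uterine carcinoma. No paired analysis was possible because the replicate numbers are only the order of accession and the labels give no pairs. Levels near the array's background limit the differences of hair and stratified keratins in internal organs.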
